A study of Mus musculus with 6 samples.

Results

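Lymphatic endothelial cells line the vessels that drain tissue fluid, immune cells and, in the gut, absorbed lipid. The genes followed here in colon tissue are 7 by which these cells are recognised, namely *Prox1*, *Flt4*, *Lyve1*, *Pdpn*, *Reln*, *Mmrn1* and *Ccl21a*. They were taken by gene symbol from the expression table, which held all 7 of them among 17778 genes. Colon RNA came from 3 obesity-prone (OP) and 3 obesity-resistant (OR) male wild-type C57BL/6J mice. All 6 mice had been fed a high-fat diet (60% fat) for 16 weeks and were 21 weeks old at collection, so no mouse on a control diet enters the comparison. The groups differ by weight gain and not by genotype: of 42 mice fed the diet, the 10 that gained the most weight were defined as OP and the 10 that gained the least as OR. Expression is given as FPKM, the fragments counted per kilobase of transcript for every 1000000 mapped, so that levels of different genes can be set side by side.

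The transcription factor PROX1 sets lymphatic identity and is needed to keep it. FLT4, also called VEGFR3, is the receptor through which the growth factors VEGF-C and VEGF-D drive lymphatic growth. LYVE1, a hyaluronan receptor, and podoplanin, the membrane glycoprotein encoded by *Pdpn*, sit at the cell surface, whereas reelin (*Reln*), multimerin 1 (*Mmrn1*) and the chemokine CCL21 (*Ccl21a*) are secreted. CCL21 guides dendritic cells and T cells that carry its receptor CCR7 into lymphatic vessels and lymph nodes. None of the genes is made by lymphatic endothelium alone. Some macrophages make *Lyve1*, some fibroblasts and mesothelial cells make *Pdpn*, neurons and enteroendocrine cells make *Prox1*, neurons make *Reln*, platelets and megakaryocytes hold *Mmrn1*, and stromal cells of lymphoid tissue make *Ccl21a*.

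The FPKM values of a mouse summed to between 585350 and 600028. Low values of genes with few fragments fell in steps, from which the depth was roughly estimated at 13700000 to 15500000 fragments per mouse. Between 60.6% and 65.6% of the values used lay within 0.15 of a whole fragment, against 30% for values with no steps. The step size, together with a length taken off each transcript, was chosen for the closest fit to whole fragments. This choice favours a high share. The step size was searched only within a fixed range, so the estimated depth could not fall outside the matching range. OP mouse 3 stood apart in genes of lymphoid tissue, with the chemokine *Cxcl13* at 24.56 FPKM against 3.15 to 6.97 in the other 5 mice. OP mouse 2 had the adipocyte genes *Adipoq* and *Plin1* at 0. The epithelial genes *Muc2* and *Car1* ranged from 17.59 to 933.17 FPKM and from 1054.43 to 15723.03 FPKM among the 6 mice, without separating the groups. In bulk tissue, fewer cells of a type and less RNA per cell cannot be told apart.

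All 7 genes had a value above 0 in all 6 mice, and all 7 had a lower mean in OP mice than in OR mice. The mean of OR mice was 1.67 times (*Prox1*) to 4.53 times (*Mmrn1*) that of OP mice. OP mice 1 and 2 lay below every OR mouse in all 7 genes, and OR mice 2 and 3 lay above every OP mouse in all 7. Of all genes tested without OP mouse 3, 23.1% had OP mice 1 and 2 below every OR mouse. Of those tested without OR mouse 1, 8.92% had OR mice 2 and 3 above every OP mouse. None of the 6 genes that could be tested passed the threshold of the comparison across all genes, a fold change of at most 0.83 with an adjusted p below 0.2 in limma-trend. Over the whole table this threshold was passed by 3 of 13520 genes tested, or 0.0222%, all lower in OP mice, and 0 genes were higher. At these cutoffs the paper reported more genes in both directions, with another method, DESeq2, which needs counts.

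**Figure D1:**
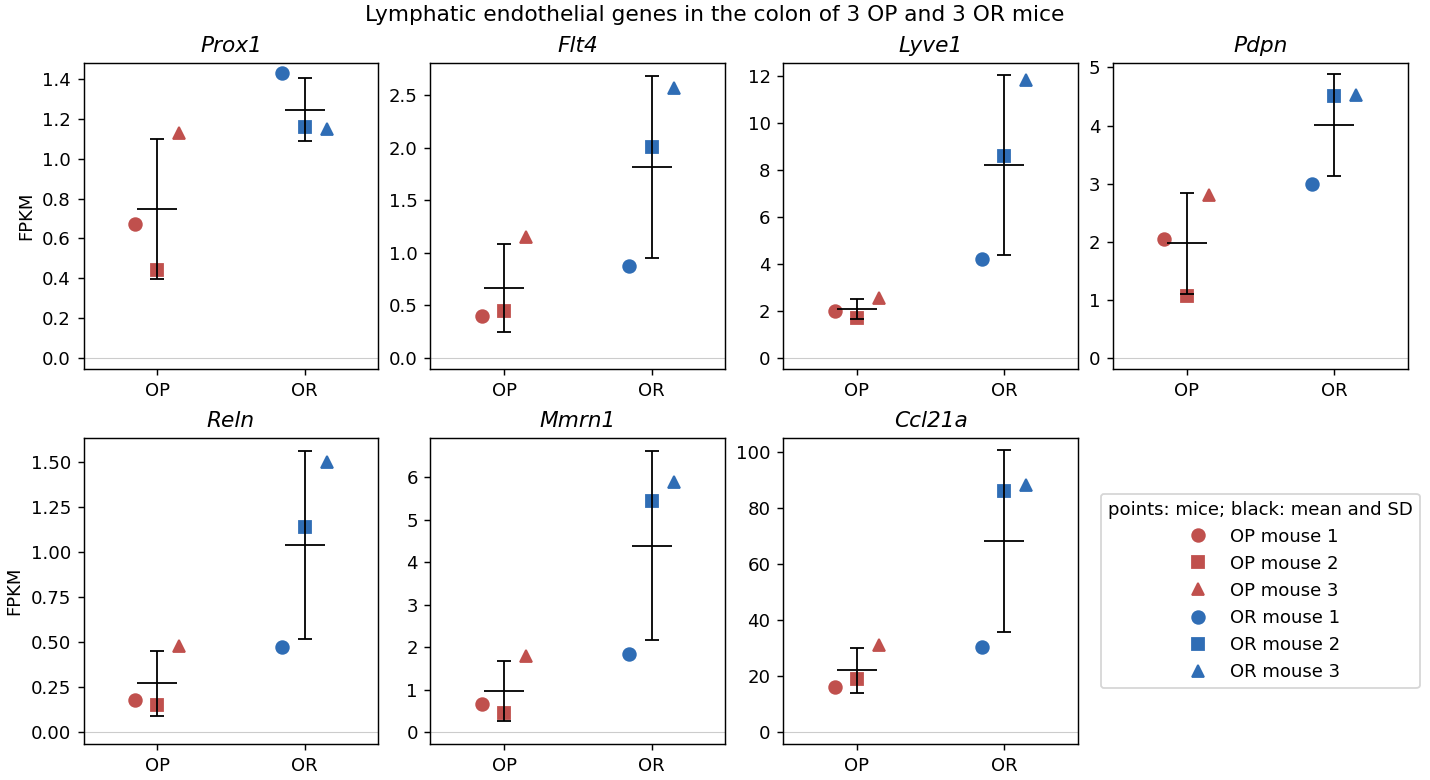
FPKM of the 7 lymphatic endothelial genes in each mouse, with OP mice in red, OR mice in blue, the marker shape giving the mouse number and black bars the mean and SD of 3 mice. In every panel OP mouse 3 is the highest OP mouse, and in *Flt4*, *Reln* and *Ccl21a* it lies above OR mouse 1.

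*Prox1* had 0.67, 0.44 and 1.13 FPKM in OP mice 1, 2 and 3 and 1.43, 1.16 and 1.15 FPKM in OR mice 1, 2 and 3. The groups did not overlap, but OP mouse 3 lay just below the lowest OR mouse, and the OR mice were close together. The mean was 0.747 ± 0.351 FPKM (SD, n = 3) in OP mice and 1.25 ± 0.159 FPKM (SD, n = 3) in OR mice. On the log2(FPKM + 1) scale the fold change OP/OR was -0.38 (standard error 0.19), with a 95% confidence interval from -0.84 to 0.08 and an adjusted p of 0.945 from limma-trend. *Prox1* had the smallest difference of the 7 genes in ratio of means, and its interval included 0.

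*Flt4* had 0.40, 0.44 and 1.15 FPKM in OP mice and 0.87, 2.01 and 2.57 FPKM in OR mice. Here the groups overlapped, since OP mouse 3 lay above OR mouse 1. The mean was 0.663 ± 0.422 FPKM (SD, n = 3) in OP mice and 1.82 ± 0.866 FPKM (SD, n = 3) in OR mice, a ratio OR/OP of 2.74. On the log2 scale the difference was -0.74 ± 0.29 (standard error), and limma-trend gave an adjusted p of 0.945. The added 1 weighs heavily at levels this low, and with 0.1 in its place the log2 fold change was -1.34 for *Flt4* and -0.75 for *Prox1*.

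*Lyve1* had 1.99, 1.68 and 2.54 FPKM in OP mice and 4.2, 8.58 and 11.82 FPKM in OR mice. The OP mice were close together and all below the lowest OR mouse, while the OR mice were spread widely. The mean was 2.07 ± 0.436 FPKM (SD, n = 3) in OP mice and 8.20 ± 3.82 FPKM (SD, n = 3) in OR mice, a ratio of 3.96. Its log2 fold change of -1.50 had a standard error of 0.34 and a 95% confidence interval from -2.29 to -0.71. The adjusted p of 0.710 in limma-trend was the lowest of the 6 genes tested and did not pass the threshold.

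*Pdpn* had 2.04, 1.06 and 2.8 FPKM in OP mice and 3, 4.51 and 4.52 FPKM in OR mice. The groups did not overlap, with OP mouse 3 and OR mouse 1 next to each other. The mean was 1.97 ± 0.872 FPKM (SD, n = 3) in OP mice and 4.01 ± 0.875 FPKM (SD, n = 3) in OR mice, and the log2 fold change was -0.78 ± 0.27 (standard error), with an adjusted p of 0.945 in limma-trend. The ratio OR/OP of means was thus 2.04 for *Pdpn*, below those of *Flt4* (2.74) and *Lyve1* (3.96), whose products also sit at the cell surface.

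*Mmrn1* encodes a large secreted glycoprotein. It had 0.67, 0.46 and 1.78 FPKM in OP mice and 1.84, 5.44 and 5.89 FPKM in OR mice. The groups did not overlap, but OP mouse 3 and OR mouse 1 had nearly the same value. The mean was 0.970 ± 0.709 FPKM (SD, n = 3) in OP mice and 4.39 ± 2.22 FPKM (SD, n = 3) in OR mice. The log2 fold change was -1.41 (standard error 0.40), with a 95% confidence interval from -2.34 to -0.47 and an adjusted p of 0.890 in limma-trend.

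*Reln* was the lowest of the 7 genes, with 0.18, 0.15 and 0.48 FPKM in OP mice and 0.47, 1.14 and 1.5 FPKM in OR mice. OP mouse 3 and OR mouse 1 were level, and only OR mice 2 and 3 reached 0.5 FPKM, so *Reln* did not pass the filter of at least 0.5 FPKM in at least 3 mice. The mean was 0.270 ± 0.183 FPKM (SD, n = 3) in OP mice and 1.04 ± 0.523 FPKM (SD, n = 3) in OR mice, a ratio of 3.84. Without the filter, limma-trend gave *Reln* -0.66 ± 0.21 (standard error) on the log2 scale and an adjusted p of 0.948. With 0.1 added in place of 1, the fold change was -1.60.

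*Ccl21a* was by far the highest of the 7 genes, with 16.10, 19.05 and 31.31 FPKM in OP mice and 30.61, 86.08 and 88.20 FPKM in OR mice. OR mice 2 and 3 were well above all others, and OR mouse 1 fell within the range of the OP mice. The mean was 22.2 ± 8.07 FPKM (SD, n = 3) in OP mice and 68.3 ± 32.7 FPKM (SD, n = 3) in OR mice, a ratio of 3.08. On the log2 scale this was -1.49 (standard error 0.43), with a 95% confidence interval from -2.50 to -0.48 and an adjusted p of 0.929 in limma-trend.

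Across the 6 mice the order of mean levels was *Ccl21a* (45.2 FPKM), *Lyve1* (5.14 FPKM), *Pdpn* (2.99 FPKM), *Mmrn1* (2.68 FPKM), *Flt4* (1.24 FPKM), *Prox1* (0.997 FPKM) and *Reln* (0.653 FPKM). *Ccl21a* stood at position 2117 of the table by mean level and *Reln* at 13107. *Ccl21a* lay above *Lyve1*, and *Mmrn1* above *Flt4*, in every mouse, whereas the other neighbours in this order changed places in at least 1 mouse. With the rough depth, the lowest value of each gene rested on an estimated 26 fragments (*Pdpn*) to 135 fragments (*Ccl21a*), which gives a counting error of 20% and 8.6%. These errors cover counting alone and not the spread between mice.

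With 3 mice against 3, a two-sided exact permutation test of 1 gene has 20 arrangements and cannot give a p below 0.1. This smallest value was reached by the 4 genes whose groups did not overlap, *Prox1*, *Lyve1*, *Pdpn* and *Mmrn1*. *Flt4*, *Reln* and *Ccl21a* each had an exact permutation p of 0.2. Over all genes tested, such a separation with OP lower was found in 6.81%.

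By limma-trend, before adjustment, 5 of the 6 genes tested were lower in OP mice with a p below 0.05 (all but *Prox1*), where 3.53% of all genes tested were lower and 0.503% higher. The filter was met in all 3 OR mice by 6 of the 7 genes but in all 3 OP mice only by 3 of them, *Lyve1*, *Pdpn* and *Ccl21a*. A count over the genes that passed is therefore a description. Without the filter, 6 of the 7 genes had an unadjusted p below 0.05, *Reln* among them, beside 3.69% of the 17775 genes then tested. The median log2 fold change of the 6 genes tested was -1.10, against -0.10 for all 13520 genes, of which 70.1% had a negative value. Median-of-ratios scaling moved the median of all genes to 0.01. Relative to that of all genes, the median of the lymphatic endothelial genes was -0.99 before and -1.02 after this scaling.

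The count of 5 depended on single mice. It was 4 without OP mouse 1, where 2.3% of all genes had such a p, and 5 without OR mouse 1 (2.07%). It was 3 without OP mouse 2 (4.59%), without OR mouse 2 (3.82%) or without OR mouse 3 (1.67%). It was 6 without OP mouse 3 (8.2%), the mouse with the high lymphoid genes. Without OP mouse 3 or without OR mouse 1 all 6 genes were free of overlap between groups, as were 23.1% and 8.92% of all genes tested. No gene changed sign when a mouse was left out. The log2 fold change of *Lyve1* then ranged from -1.86 to -1.21, that of *Mmrn1* from -1.82 to -1.18 and that of *Ccl21a* from -1.98 to -1.23. *Prox1* ranged from -0.53 to -0.25, the latter without OP mouse 2.

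**Figure D2:**
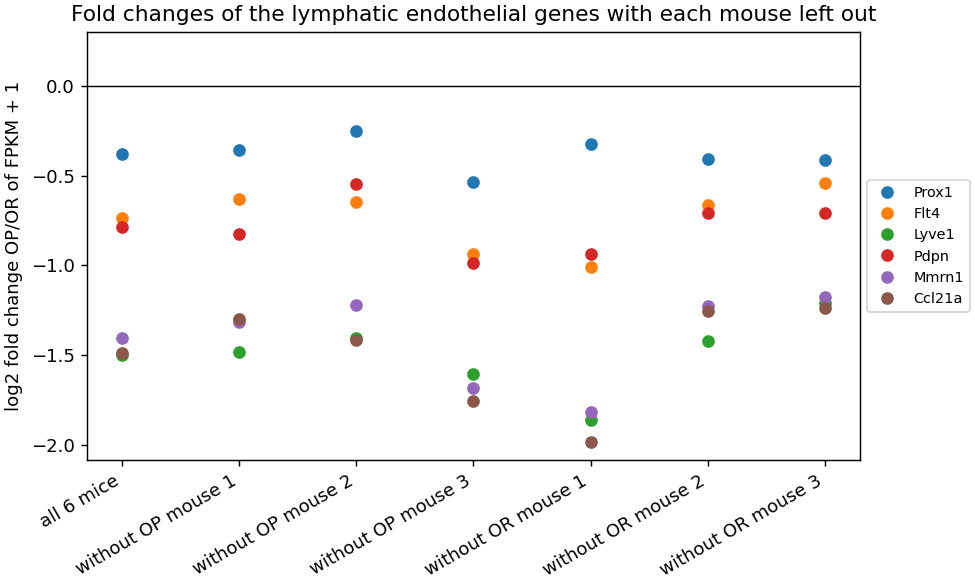
Log2 fold change OP/OR of FPKM + 1 for the 6 lymphatic endothelial genes tested, with all 6 mice and with each mouse left out in turn, 1 coloured point per gene. All points lie below 0, and *Prox1* lies nearest to 0 in every column.

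The proportions among the 7 genes were compared within each mouse by dividing by *Flt4*, the growth factor receptor. The ratio of *Mmrn1* to *Flt4* was 1.68, 1.05 and 1.55 in OP mice and 2.11, 2.71 and 2.29 in OR mice, without overlap. *Reln* over *Flt4* was 0.450, 0.341 and 0.417 in OP mice and 0.540, 0.567 and 0.584 in OR mice, again without overlap. The secreted proteins did not all share this order, as *Ccl21a* over *Flt4* overlapped, with 40.2, 43.3 and 27.2 in OP mice and 35.2, 42.8 and 34.3 in OR mice. In OP mouse 1, *Reln* over *Flt4* rested on an estimated 28 fragments of *Reln* and 33 of *Flt4*. How often a ratio to *Flt4* separates the groups over all genes was not counted.

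*Lyve1* over *Flt4* also overlapped, with 4.97, 3.82 and 2.21 in OP mice and 4.83, 4.27 and 4.60 in OR mice. *Prox1* over *Flt4* was 1.68, 1.00 and 0.983 in OP mice and 1.64, 0.577 and 0.447 in OR mice, so that the transcription factor was low relative to the receptor in the OR mice with the highest *Flt4*. *Pdpn* over *Flt4* was 5.10, 2.41 and 2.43 in OP mice and 3.45, 2.24 and 1.76 in OR mice, with overlap. These ratios were not tested, and those of low genes carry the counting error of both.

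The profiles over the 6 mice, each centred on the mean of its gene on the log2(FPKM + 1) scale, were compared between the 21 pairs of the 7 genes by their mean absolute difference. *Flt4* and *Reln* were the closest pair, with 0.104, followed by *Ccl21a* and *Mmrn1* with 0.143, *Pdpn* and *Reln* with 0.174 and *Lyve1* and *Mmrn1* with 0.182. The measure is smaller for low genes, since the added 1 flattens their profiles. The farthest pair was *Ccl21a* and *Prox1*, with 0.737. *Prox1* was the only one of the 7 genes in which OR mouse 1 was not the lowest OR mouse.

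*Ccl21a* has near-identical copies in the mouse genome, and fragments from them are hard to assign. The table held rows for *Ccl21b*, *Ccl21d*, *Gm13304* and *Gm10591*. In the GENCODE transcripts of build GRCm38 all 5 coding sequences lie on chromosome 4 and are 402 bases long. The 4 copies are identical to each other in the coding sequence and differ from *Ccl21a* at 2 positions (99.5% identity). Counted from 1 at the start codon, T84A leaves codon 28 a glycine codon, and C194T changes codon 65 from serine to leucine. The 61 bases around each position are shown from 5′ to 3′ because they are all that separates the coding sequences. The differing base is in capitals, with coding bases 54 to 114 first and coding bases 164 to 224 second.

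Ccl21a, first stretch: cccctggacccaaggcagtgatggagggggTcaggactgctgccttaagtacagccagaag
Ccl21d, first stretch: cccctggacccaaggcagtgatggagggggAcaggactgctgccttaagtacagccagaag
Ccl21a, second stretch: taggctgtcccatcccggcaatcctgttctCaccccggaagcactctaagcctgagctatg
Ccl21d, second stretch: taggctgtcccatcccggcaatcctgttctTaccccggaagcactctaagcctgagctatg

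Over whole transcripts, 864 of 870 bases were the same in *Ccl21a* and *Ccl21d*, and all 837 bases of *Gm13304* were found in *Ccl21d*. *Ccl21d* had 2.98, 2.66 and 6.53 FPKM in OP mice and 4.72, 8.83 and 14.20 FPKM in OR mice, with OP mouse 3 above OR mouse 1 as for *Ccl21a*. The values of *Gm13304* and *Gm10591* were equal to each other in every mouse and nearly those of *Ccl21d*. Their division by the quantification is therefore uncertain. *Ccl21b* was at 0 to 1.03 FPKM, and its groups overlapped.

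Summed over the 5 rows, the level was 25.04, 27.85 and 51.40 FPKM in OP mice and 45.12, 113.22 and 131.79 FPKM in OR mice. The mean was 34.8 ± 14.5 FPKM (SD, n = 3) in OP mice and 96.7 ± 45.6 FPKM (SD, n = 3) in OR mice, a ratio of 2.78 against 3.08 for *Ccl21a* alone. *Ccl21a* made up 64.3%, 68.4% and 60.9% of the sum in OP mice and 67.8%, 76.0% and 66.9% in OR mice. The log2 fold change of *Ccl21a* was -1.38 when all 4 copies were added to it and -1.45 when *Ccl21d* alone was added, an alternative chosen after the data had been seen. Adding the copies thus left the direction and the size of the difference nearly as they were.

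**Figure D3:**
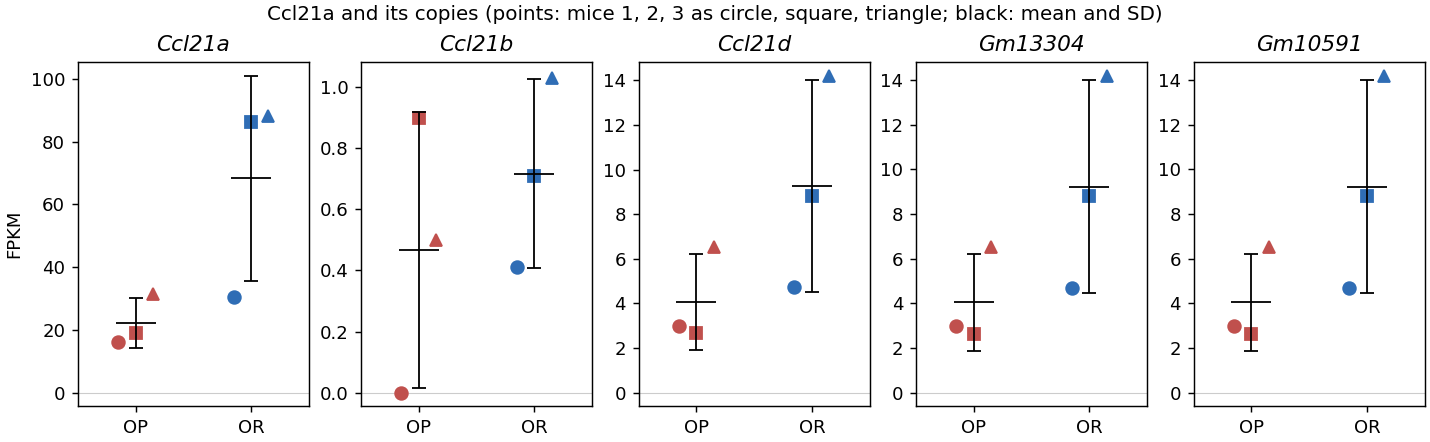
FPKM of *Ccl21a* and its 4 near-identical copies in each mouse, with OP mice in red, OR mice in blue and black bars for the mean and SD of 3 mice. The panels of *Ccl21d*, *Gm13304* and *Gm10591* show nearly the same values, and *Ccl21b* stays at or below 1.03 FPKM.

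Promoter sequences, 250 bases before the transcription start, were available for 6 of the 7 genes from RefSeq (GRCm38.p6). They were searched on both strands for ACAAAG and ACAATG, which SOX factors bind, for AGATAA and TGATAA, which GATA factors bind, and for AGGTCA, the half-site of nuclear receptors such as NR2F2. SOX18, GATA2 and NR2F2 act beside PROX1 in lymphatic development. The SOX letters were found in 3 of the 6 genes (*Prox1*, *Pdpn* and *Mmrn1*). *Prox1* has 2 promoter entries, of which the second held them, so that the count is 3 of 7 entries, against 25.2% of 32851 promoter entries. The GATA letters were found in *Mmrn1* only, against 16.6%, and AGGTCA in *Pdpn* only, against 14.0%. *Pdpn* and *Mmrn1* are shown because each held the letters of 2 families, with the matches in capitals. The letters were chosen after the promoters had been read, so the shares over all entries give a scale and do not test the counts. These matches are not measured binding.

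Pdpn, chr4:143299565-143299814, minus strand: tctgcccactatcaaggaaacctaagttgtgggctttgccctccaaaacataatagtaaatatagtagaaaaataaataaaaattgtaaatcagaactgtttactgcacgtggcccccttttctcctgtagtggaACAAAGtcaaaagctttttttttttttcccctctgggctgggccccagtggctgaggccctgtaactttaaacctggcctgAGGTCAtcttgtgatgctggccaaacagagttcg
Mmrn1, chr6:60944067-60944316, plus strand: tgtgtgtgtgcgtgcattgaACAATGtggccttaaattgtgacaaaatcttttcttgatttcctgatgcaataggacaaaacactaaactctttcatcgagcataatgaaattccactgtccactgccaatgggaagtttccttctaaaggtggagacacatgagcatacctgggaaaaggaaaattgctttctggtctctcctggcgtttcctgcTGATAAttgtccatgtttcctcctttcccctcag

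Other genes of lymphatic growth, identity and traffic were followed in 5 lists chosen by function, 40 genes in all. Of these, 39 had a row in the table used here and 30 passed the filter. In limma-trend 0 of the 30 passed the threshold, 28 had a negative log2 fold change and 2 a positive one, and the median was -0.35. Over all genes tested, 70.1% had a negative value and the median was -0.10. At an unadjusted p below 0.05, 7 were lower in OP mice, among them *Kdr*, *Tie1*, *Tek*, *Svep1*, *Calcrl* and *Ramp2*, and 0 were higher, beside 3.53% and 0.503% of all genes tested. The count of lower genes was 3 without OP mouse 1 (2.3% of all genes), 4 without OP mouse 2 (4.59%), 13 without OP mouse 3 (8.2%), 5 without OR mouse 1 (2.07%), 4 without OR mouse 2 (3.82%) and 1 without OR mouse 3 (1.67%). The OP mice lay below the OR mice without overlap in 9 of the 30 genes, beside 6.81% of all genes.

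The ligands of FLT4 were followed beside the receptor. *Vegfc*, which encodes its main ligand, had a mean of 1.75 ± 0.609 FPKM (SD, n = 3) in OP mice and 2.48 ± 0.671 FPKM (SD, n = 3) in OR mice, or -0.35 ± 0.25 (standard error) on the log2 scale. *Vegfd* had -0.43 (standard error 0.21), with a ratio OR/OP of means of 2.51 beside 2.74 for *Flt4*. Its level was low, with 0.53, 0.16 and 0.24 FPKM in OP mice and 0.76, 1.16 and 0.41 FPKM in OR mice. The groups overlapped in *Vegfd*, since OP mouse 1 lay above OR mouse 3. *Ccbe1*, whose product is needed to activate VEGF-C, had -0.27 (standard error 0.17). The coreceptor *Nrp2* varied widely, with 2.51, 24.11 and 10.52 FPKM in OP mice and 13.35, 7.63 and 15.97 FPKM in OR mice. *Kdr*, the VEGF receptor that blood endothelium also carries, had -0.82 (standard error 0.32). *Adamts3* and *Adamts14*, which encode proteases of the same step, did not pass the filter.

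Among the transcription factors beside *Prox1*, none had an unadjusted p below 0.05. *Sox18*, which switches on *Prox1* in the embryo, differed by -0.56 on the log2 scale (standard error 0.27), and *Gata2*, needed in lymphatic valves, had -0.35 (standard error 0.15) without overlap between groups. *Nr2f2*, a partner of PROX1, had -0.20 (standard error 0.25), *Nfatc1* had -0.12 and *Hhex* had 0.18 (standard error 0.31). *Foxc1*, *Foxc2* and *Tbx1* did not pass the filter.

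The list of angiopoietin and adrenomedullin signalling, whose receptors lymphatic and blood endothelium share, held 8 genes, all tested. In limma-trend 5 of them were lower in OP mice at an unadjusted p below 0.05, beside 3.53% of all genes tested. The angiopoietin receptors *Tie1* and *Tek* had log2 fold changes of -0.85 (standard error 0.31) and -0.76 (standard error 0.23). *Svep1*, a matrix protein needed for lymphatic remodelling, had -0.68 (standard error 0.21). The adrenomedullin receptor is formed by *Calcrl* with -0.88 (standard error 0.29) and *Ramp2* with -1.13 (standard error 0.41). Its ligand *Adm* had the opposite sign, 0.61 (standard error 0.40), with 8.57, 4.56 and 2.76 FPKM in OP mice and 1.47, 3.81 and 3.69 FPKM in OR mice, so that the groups overlapped.

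In the CCR7 axis the log2 value was -0.02 (standard error 0.28) for *Ccr7* beside -1.49 for *Ccl21a*. *Ccr7* had 0.26, 0.41 and 1.60 FPKM in OP mice and 0.71, 0.78 and 0.58 FPKM in OR mice. OP mouse 3, the mouse with the high lymphoid genes, was the highest of all mice, and the other OP mice were the lowest. The other CCR7 ligand, *Ccl19*, did not pass the filter. *Ackr4*, the scavenger receptor that removes CCL21 and CCL19, had -0.60 (standard error 0.27) without overlap between groups. Of the genes by which sphingosine 1-phosphate is made, exported and sensed, *Sphk1* had -0.27, *Spns2* had -0.31 and *S1pr1* had -0.61. Among further lymphatic genes, *Thy1* had -0.61 and *Clca3a1* had -0.04. The adjusted p of the 30 genes in limma-trend lay between 0.945 and 0.991.

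**Figure D4:**
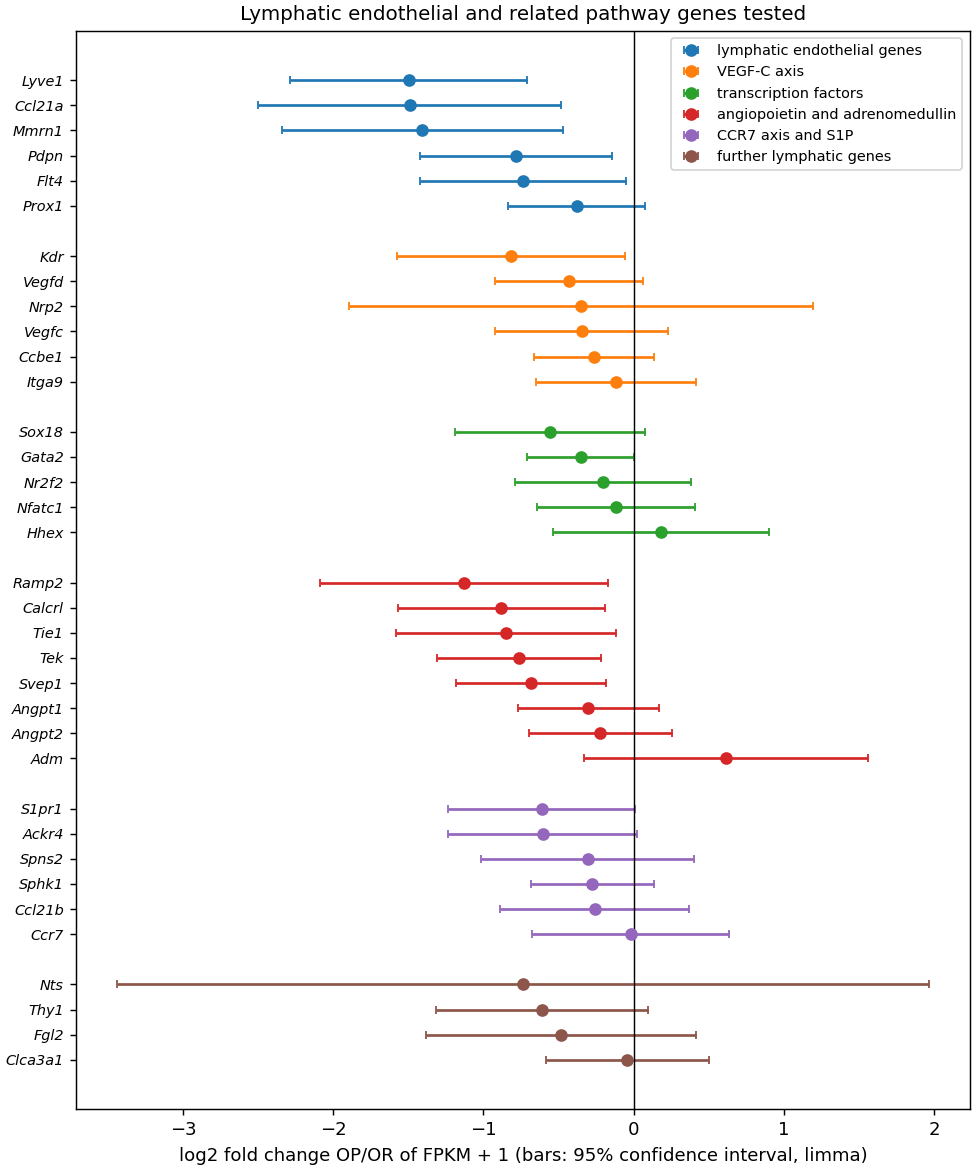
Log2 fold change OP/OR of FPKM + 1, with 95% confidence intervals from limma, for the 6 lymphatic endothelial genes and 29 of the 30 related genes tested, coloured by list. *Lyve1*, *Ccl21a* and *Mmrn1* lie farthest to the left, and *Adm* and *Hhex* are the 2 genes to the right of 0.

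Blood endothelium was examined to see whether the lymphatic genes stood apart from endothelium as a whole. Its 12 marker genes all had negative log2 fold changes, with a median of -0.69. Among all genes tested, 70.1% were negative too, and the median was -0.10. The markers are not all particular to blood endothelium, since they include *Plvap*, which lymphatic endothelium also makes. By limma-trend, 8 of these markers were lower in OP mice with a p below 0.05 before adjustment, beside 3.53% of all genes tested. *Pecam1* had 5.10, 4.25 and 6.80 FPKM in OP mice and 7.56, 9.24 and 11.72 FPKM in OR mice. The mean log2(FPKM + 1) of the 6 lymphatic genes minus that of the 12 blood endothelial genes was -0.08, -0.25 and -0.03 in OP mice and -0.09, 0.45 and 0.26 in OR mice. OR mouse 1 lay within the range of the OP mice. The group means of this measure differed by -0.32 (OP minus OR, pooled SD 0.211), and by -0.16 without OR mouse 2. No test was made of this difference. The measure cannot fully set lymphatic apart from blood endothelium, because lymphatic endothelium adds to some of the genes taken off.

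Markers of cell types that also make some of the 7 genes moved with them in part. All 10 macrophage genes tested of 11 listed were lower in OP mice at an unadjusted p below 0.05 in limma-trend, with a median of -0.996. Of all genes tested, 3.53% were lower with such a p. The summed level of the macrophage genes was 33.14 to 90.87 FPKM in OP mice and 100.51 to 133.94 FPKM in OR mice. *Timd4* was at 0 in 1 mouse. All 8 fibroblast genes had negative values, as had 70.1% of all genes tested. Of the 8, 7 had an unadjusted p below 0.05, beside the same 3.53%, and the median was -0.87. Their sum was 76.20 to 134.02 FPKM in OP mice and 211.07 to 411.66 FPKM in OR mice. The part of macrophages in the difference of *Lyve1* and that of fibroblasts in the difference of *Pdpn* was not tested.

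Of the platelet genes, 3 of the 6 in the table passed the filter. Their summed level was 4.96 to 15.88 FPKM in OP mice and 13.63 to 24.93 FPKM in OR mice, and *Gp9* and *Tubb1* were at 0 in some mice. The median of the 3 was -0.43, with *Pf4* at -1.76 (standard error 0.31), *Gp1bb* at -0.43 (standard error 0.44) and *Itga2b* at 0.10 (standard error 0.21) on the log2 scale. The part of platelets in the difference of *Mmrn1* was not tested. The lymphoid genes had a median of 0.07 over the 5 that passed of 8, with sums of 10.25 to 67.43 FPKM in OP mice and 16.27 to 18.32 FPKM in OR mice. The highest sum was that of OP mouse 3, the OP mouse with the highest *Ccl21a*. What lymphoid tissue adds to *Ccl21a* was not tested.

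The remaining cell types did not separate the groups by summed level. Their median log2 fold changes ran from -1.04 for adipocytes to 0.10 for neurons and glia. The 8 enteroendocrine genes had a median of 0.06 and sums of 71.92 to 584.53 FPKM in OP mice and 124.09 to 340.20 FPKM in OR mice. The 8 genes of neurons and glia had a median of 0.10 and sums of 25.49 to 54.22 FPKM in OP mice and 24.83 to 54.77 FPKM in OR mice. The mesothelial genes had a median of -0.09 over 2 of 4 genes, with sums of 0.96 to 5.96 FPKM and 2.48 to 5.34 FPKM. The summed levels of these 3 lists overlapped between OP and OR mice. The part of enteroendocrine cells and neurons in the differences of *Prox1* and *Reln* was not tested.

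The 6 smooth muscle genes all had negative log2 fold changes, beside 70.1% of all genes tested, and their median was -0.35. Their sums were 1391.28 to 2224.25 FPKM in OP mice and 1721.95 to 3194.72 FPKM in OR mice. Of the 7 adipocyte genes, 6 had a negative value and 1 a positive one, with a median of -1.04. The adipocyte sums were 22.22 to 144.89 FPKM in OP mice and 74.28 to 372.45 FPKM in OR mice. *Adipoq*, *Plin1*, *Lep*, *Cfd* and *Retn* were at 0 in at least 1 mouse. The 8 epithelial genes had a median of 0.07, with sums of 5045.43 to 18595.32 FPKM and 7629.07 to 19414.16 FPKM. The part of tissue makeup in the differences of the lymphatic genes was not tested.

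**Figure D5:**
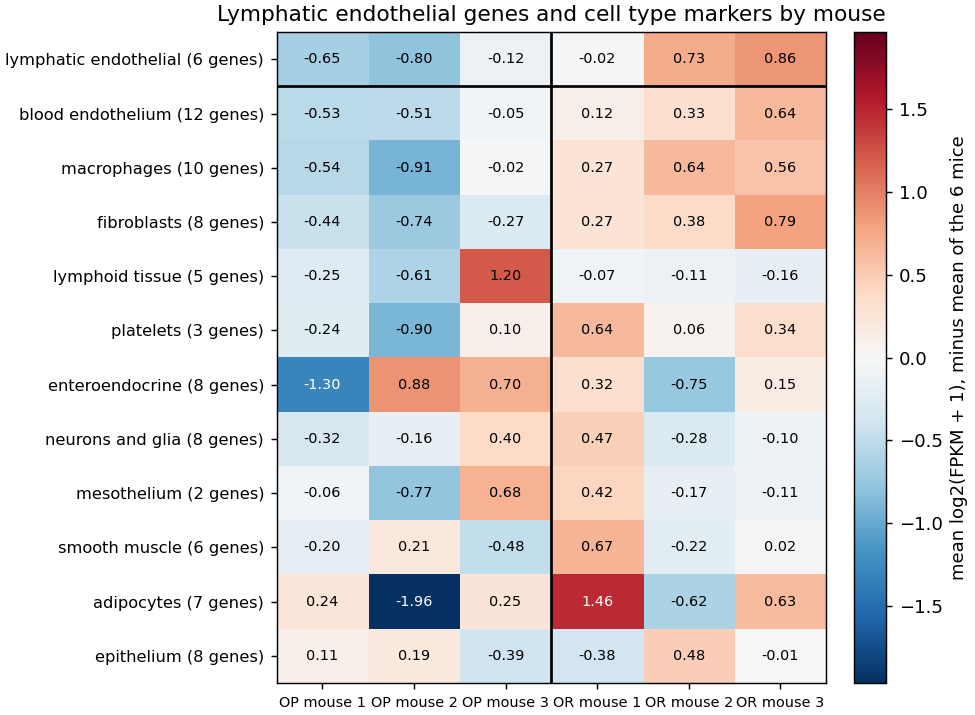
Mean log2(FPKM + 1) of the lymphatic endothelial genes and of markers of 11 other cell types in each mouse, after the 6-mouse mean of each row was taken off (red higher, blue lower). The lymphatic row runs from -0.80 in OP mouse 2 to 0.86 in OR mouse 3, and the rows of blood endothelium, macrophages and fibroblasts show the same sign in each mouse except in OR mouse 1.

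The genes with the pattern most like the lymphatic endothelial genes were sought among all genes tested, by the mean absolute difference of centred log2(FPKM + 1) profiles over the 6 mice from the average profile of the 6 lymphatic genes. The nearest 10 genes were *Plvap* (0.078), *Tie1* (0.0996), *Pltp* (0.101), *Tmem204* (0.109), *Adgre1* (0.137), *Serping1* (0.139), *Kdr* (0.139), *Mrc1* (0.143), *Fndc1* (0.148) and *C7* (0.149). *Plvap* encodes a diaphragm protein of fenestrated and lymphatic endothelium, *Adgre1* and *Mrc1* mark macrophages, and *Serping1* and *C7* encode complement proteins. *Plvap* had 5.51, 4.11 and 9.21 FPKM in OP mice and 8.69, 15.66 and 18.35 FPKM in OR mice, with OP mouse 3 above OR mouse 1 as in *Ccl21a*. The likeness rests on 6 points that share the groups and the libraries.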

How the data were processed

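The deposited values are FPKM per gene symbol, 1 column per mouse, rounded to 2 decimals. Per the labels and the methods, the authors enriched mRNA, made strand-specific libraries for the DNBSEQ platform, cleaned reads with SOAPnuke, aligned them to a gene set with Bowtie2 and quantified with RSEM. The sources differ in versions and in the description of the gene set, and the processing notes also list HISAT2 and build GRCm39. RSEM divides fragments between similar transcripts, which bears on *Ccl21a*.

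The groups were compared by limma-trend in R 4.3.3 (package version 3.58.1) on log2(FPKM + 1), with genes of at least 0.5 FPKM in at least 3 mice, no covariates and Benjamini-Hochberg adjustment over all 13520 genes. The study's thresholds were used for calls, namely an adjusted p below 0.2 with a fold change above or equal to 1.2 or below or equal to 0.83. A fold change on this scale understates that of low genes. DESeq2, which the authors used, needs counts and was not run. Exact permutation tests used SciPy 1.17.1. The fit was tested on simulated data.

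The genes and lists were chosen with earlier results of these data known. All 7 lymphatic genes, the related pathway genes, up to 4 markers of each other cell type and the 10 genes of most like pattern are named. *Cxcl13*, *Muc2*, *Car1*, the platelet genes and genes at 0 were named after their values were seen. So were the motif letters chosen, after the promoters had been read. Fragment numbers use the longest coding GENCODE transcript of GRCm38. No coordinates were converted between builds. Some genes of the lists are not reported here.

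The alternatives changed the moderation (no trend), the scaling (median of ratios, TPM), the added constant (0.1), the filter (none, or at least 1 FPKM in all 6 mice), the weights of the samples and the thresholds, added a replicate block, or left out each mouse in turn.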

Additional observations from a re-analysis of the deposited data

How the results depend on the processing

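Under every alternative run, 0 lymphatic endothelial genes passed the threshold in limma-trend, and no log2 fold change of the 7 changed sign. The lowest adjusted p among them ranged from 0.364 (without OP mouse 3) to 1.00 in the settings that left out a mouse, and was 0.464 with the replicate number as a block. With at least 1 FPKM required in all 6 mice, 3 of the genes were tested, 3 had an unadjusted p below 0.05 and 2 had no overlap between groups. Of the related pathway genes 15 were then tested and 2 had an unadjusted p below 0.05, and 11 of 30 had one with sample weights. With each mouse left out in turn, 3 to 6 lymphatic genes and 1 to 13 related genes had an unadjusted p below 0.05. The median log2 fold change of the lymphatic genes was -1.01 with median-of-ratios scaling, -1.21 as TPM, -1.43 with 0.1 added and -0.78 with no filter.

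The replicate numbers belong to different mice, and the labels name no pairing by number. The correlation of deviations between mice of the same number averaged -0.0765 and between others 0.0394. Deviations sum to 0 within a group, which ties these averages to each other, so they cannot decide whether the numbers pair mice. With the replicate block, 5 lymphatic and 7 related genes had an unadjusted p below 0.05 and the median was -1.10, so no call changed. Standard errors moved in both directions, from 0.43 to 0.25 for *Ccl21a* and from 0.19 to 0.24 for *Prox1*. Depth was only roughly estimated from FPKM steps, and low genes such as *Reln* rest on few fragments.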
